A study of Canis lupus familiaris with 18 samples.

Results

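Collagens and the glycoproteins that assemble with them form the extracellular matrix of adipose tissue. The 49 genes described here were chosen by name to cover it, as 7 fibrillar collagens, 4 collagens of microfibrils and networks, 3 collagens that bind to fibrils, 13 components of basement membranes, 9 of elastic fibres, 6 proteoglycans and 7 adhesive or matricellular proteins. A gene was represented by 1 probe set, a group of short array probes for 1 transcript, taken as the one with the highest mean over the 18 arrays among probe sets with that gene as their single symbol. Of the 49 genes, 43 had such a probe set, out of 15115 genes on the array that had one. COL6A2, COL8A1, COL11A1, COL18A1, LAMA2 and TNXB were not analysed here. A filter on low values, which asked for log2 4 or more on 4 or more of the 18 arrays, kept 40 of the 43, among 21484 probe sets tested in the series. COL4A3 and COL4A4 reached log2 4 on 1 array each and TNC on 0, so these 3 genes were not tested. FBN2 passed the filter through 5 arrays and POSTN through 7 subcutaneous arrays.

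Fibrillar collagens are spun into the fibres that give tissue its tensile strength, and the smaller collagens and leucine-rich proteoglycans on their surface set how the fibres pack. Collagen IV, laminins, nidogens and perlecan form the basement membrane, the sheet that surrounds every fat cell and blood vessel. Fibrillins, fibulins and elastin form elastic fibres. In fat the fibrillar matrix is made mainly by stromal fibroblasts and their progenitors, while fat cells and vessels contribute much of the basement membrane, and the matrix is remodelled as fat cells enlarge.

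RNA of gonadal and subcutaneous adipose tissue was hybridised to Affymetrix canine arrays. It came from 9 beagles, all intact females aged 4 years. The dogs had been randomised to ad libitum feeding (5 dogs, numbers 2, 5, 6, 7 and 8, which became obese) or to feeding that held their starting body weight (4 control dogs, numbers 1, 3, 4 and 9, which stayed lean). All 9 ate the same commercial diet, Purina Pro Plan Performance Formula, for 24 weeks. After a night without food, gonadal and subcutaneous fat were taken from every dog. No allele or drug distinguishes the groups. By their labels the 9 subcutaneous samples, and none of the gonadal ones, had also been submitted before. In every comparison of depots below, an array batch that follows this division and the depot itself cannot be told apart. Values are deposited expression values read as log2, and values of an array set are given in the order of the dog numbers above. The tissue is whole fat, so fewer cells of a type and less RNA per cell cannot be told apart.

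All 8 adipocyte markers lay at or above log2 4 in every array, gonadal and subcutaneous. On 4 arrays markers of skeletal muscle or ciliated epithelium were high. Skeletal muscle markers averaged 10.24 in gonadal fat of ad libitum dog 2, 11.31 and 10.32 in subcutaneous fat of control dogs 3 and 4, and 3.85 to 5.92 on the other 15. The highest of these 15, subcutaneous fat of ad libitum dog 7, had 8 of 10 muscle markers at or above log2 4, against 2 to 4 on the other 14, with MYH2 at 6.74. Ciliated epithelium markers averaged 6.69 in gonadal fat of ad libitum dog 6 and 5.46 in subcutaneous fat of control dog 4, and 2.37 to 2.56 elsewhere. Results are therefore also given without these 4 arrays, a choice made after seeing the data, which leaves dogs 1 and 9 as the subcutaneous controls, and the counts also without the array of dog 7. Smooth muscle and pericyte markers averaged 11.81 in gonadal fat of control dog 3, against 7.16 to 10.48 on all other arrays. That array was kept in these fits. The subcutaneous array of ad libitum dog 5 stood apart in another way. Its macrophage markers averaged 10.32, against 8.38 to 9.52 on the other 8 subcutaneous arrays, and its adipocyte markers 11.06, against 12.77 to 13.27 in the other 4 ad libitum dogs.

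Between depots, called differences were mostly lower in gonadal than in subcutaneous fat, in 3 of 6 fibrillar collagens, 2 of 2 microfibrillar collagens, 3 of 9 elastic fibre genes, 3 of 5 adhesive genes, 1 of 6 proteoglycans and 1 of 9 basement membrane genes, and in 0 of 3 collagens that bind to fibrils. Over all 9 dogs 13 of the 40 genes were lower in gonadal fat and 1 was higher (limma, adjusted p under 0.05). Of all 21484 probe sets, 8.84% were lower and 7.76% higher. The median difference, gonadal minus subcutaneous, was -0.30 on the log2 scale over the 40 genes and 0.02 over all probe sets. This median moved to -0.11 without the 4 arrays with skeletal muscle or ciliated-cell transcripts and to -0.20 without dog 3. It moved to -0.56 with RNA length (actin signal at the 3' end minus that at the 5' end) as a covariate. In each of the 9 dogs 11 of the 40 genes were lower in gonadal fat, against 5.23% of all probe sets, and 0 of 40 were higher in each dog, against 4.06%. Without those 4 arrays, 7 were lower and 1 higher, against 7.13% and 7.09% of all probe sets. With the subcutaneous array of dog 7 left out as well the counts were also 7 and 1. POSTN passed the filter through subcutaneous arrays alone, so a lower value in gonadal fat was built into its selection, and without it 12 of 39 genes were lower, 10 of them in each dog. The plot of single genes by array shows the values that these differences rest on.

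**Figure D1:**
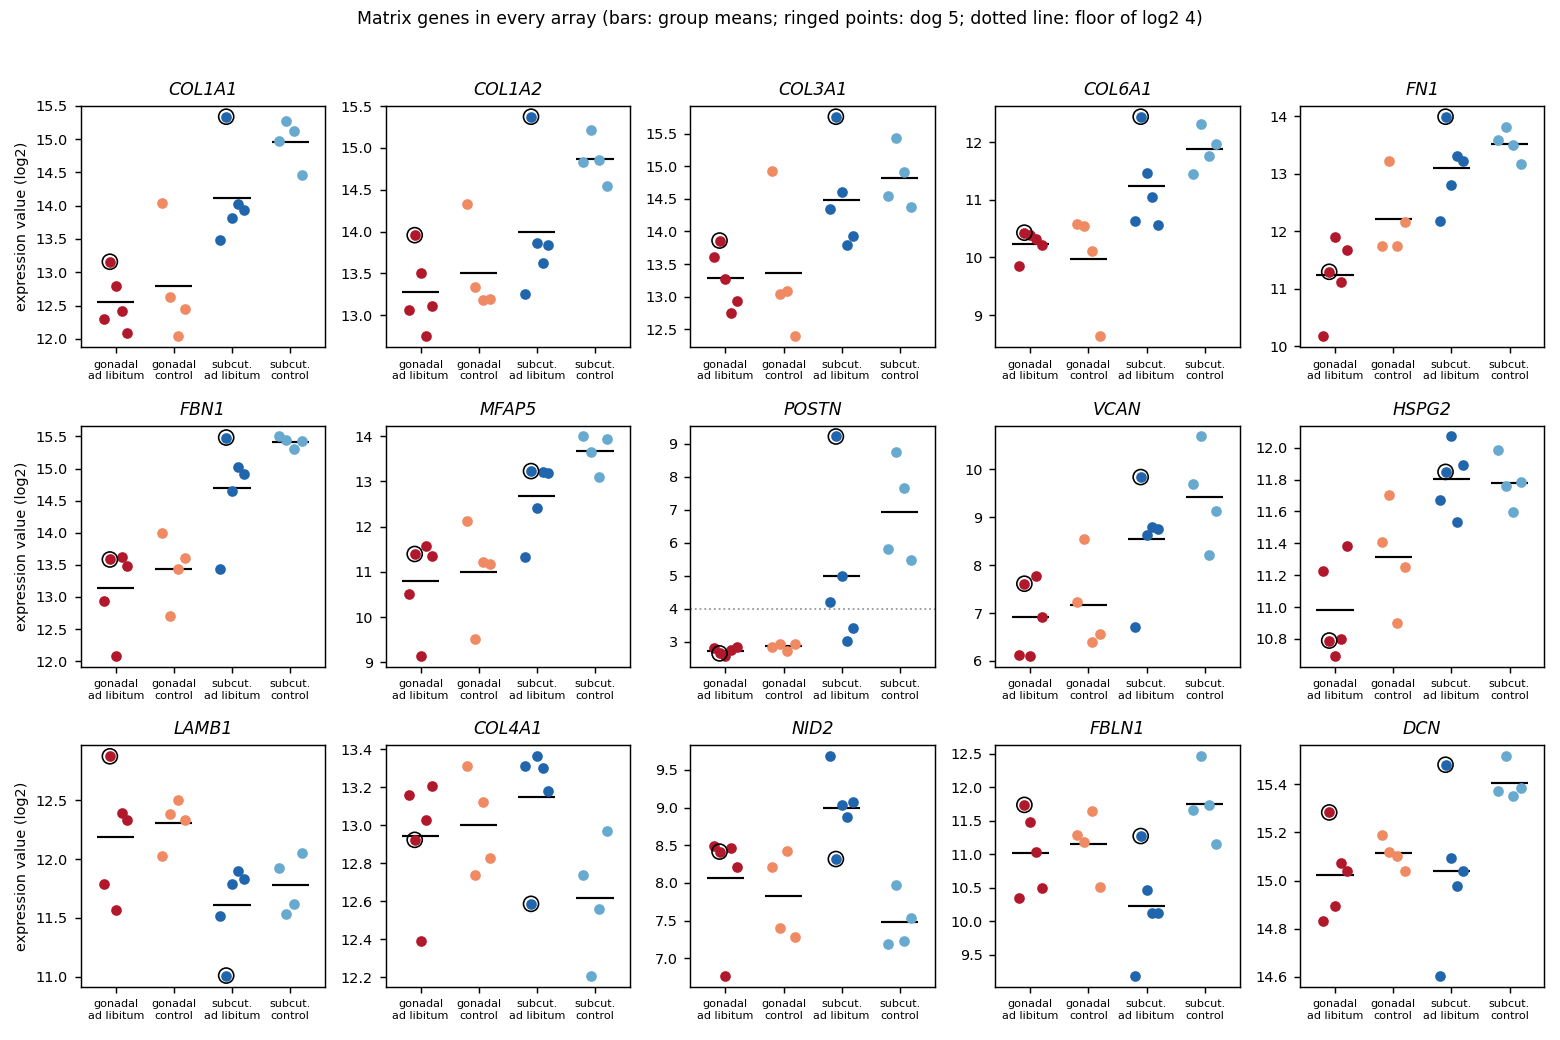
Log2 expression value (vertical axis, a separate scale in each panel) of 15 matrix genes in the 4 groups, gonadal left of subcutaneous and ad libitum left of control. Each point is an array, bars are group means, and ringed points are dog 5. COL1A1, FBN1, MFAP5 and POSTN lie lower in both gonadal groups, and in subcutaneous fat dog 5 lies above the other ad libitum dogs in most fibrillar panels and below them for COL4A1, LAMB1 and NID2.

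Type I collagen, the main fibrous collagen, is built from the products of COL1A1 and COL1A2. COL1A1 lay at 12.31, 13.16, 12.80, 12.42 and 12.08 in gonadal fat of ad libitum dogs and at 14.05, 12.63, 12.04 and 12.44 in that of control dogs. The values were 13.48, 15.34, 13.81, 14.02 and 13.93 in subcutaneous fat of ad libitum dogs and 14.97, 15.28, 15.13 and 14.46 in that of control dogs. Every dog had less in its gonadal fat, and within each feeding group the depots did not overlap. The difference was -1.87 ± 0.28 (log2 difference ± standard error, limma, adjusted p = 0.000466), a fold of 3.64. It was -1.56 ± 0.37, adjusted p = 0.0186 in ad libitum dogs, and -2.17 ± 0.41, adjusted p = 0.0116 in control dogs. COL1A2 lay at 13.06, 13.96, 13.51, 12.75 and 13.11 in gonadal fat of ad libitum dogs and at 14.33, 13.33, 13.18 and 13.20 in that of control dogs, against 13.25, 15.37, 13.87, 13.63 and 13.84 in subcutaneous fat of ad libitum dogs and 14.83, 15.22, 14.86 and 14.54 in that of control dogs. All 9 dogs were lower in gonadal fat for this chain as well, by -1.03 ± 0.26 (adjusted p = 0.013), and it did not pass in ad libitum dogs (-0.71 ± 0.34, adjusted p = 0.221) or in control dogs (-1.35 ± 0.38, adjusted p = 0.0656) alone. Other probe sets gave larger differences over all dogs. They were -2.18 (adjusted p = 0.00681), -2.25 (0.00513) and -1.17 (0.121) for COL1A2, and -2.84 (0.00372) and -3.12 (0.00398) for COL1A1. Without the 4 arrays COL1A1 stood at -1.74 (adjusted p = 0.00996) and COL1A2 at -0.95 (adjusted p = 0.0813, no longer past the threshold).

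COL3A1 encodes type III collagen, which forms finer fibres with type I. COL3A1 lay at 13.60, 13.86, 13.27, 12.74 and 12.93 in gonadal fat of ad libitum dogs and at 14.92, 13.04, 13.09 and 12.39 in that of control dogs, against 14.34, 15.76, 14.61, 13.80 and 13.93 in subcutaneous fat of ad libitum dogs and 14.54, 15.44, 14.92 and 14.37 in that of control dogs. In 8 dogs gonadal fat had less, and control dog 1 had more, its gonadal array being the highest of the 9 gonadal ones. The difference over all dogs was -1.33 ± 0.33, adjusted p = 0.0114, and -1.21 (adjusted p = 0.0741) without the 4 arrays. Other COL3A1 probe sets did not all show it. They stood at -1.48 (adjusted p = 0.00687), -1.47 (0.0418), -0.016 (0.983) and 0.49 (0.501) over all dogs. Type V collagen, which starts fibrils and limits their width, did not pass in any chain. COL5A1 stood at -0.84 ± 0.29, adjusted p = 0.058, COL5A2 at -0.55 ± 0.19, adjusted p = 0.0604, and COL5A3 at -0.13 ± 0.33, adjusted p = 0.834. In all, 3 of the 6 fibrillar genes tested were called, all 6 differences were negative, and their median was -0.94.

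Type VI collagen forms beaded microfilaments around fat cells, and both of its measured chains were lower in gonadal fat of every dog. COL6A1 lay at 9.85, 10.43, 10.39, 10.33 and 10.21 in gonadal fat of ad libitum dogs and at 10.58, 10.55, 10.11 and 8.64 in that of control dogs, against 10.64, 12.45, 11.47, 11.05 and 10.56 in subcutaneous fat of ad libitum dogs and 11.45, 12.32, 11.77 and 11.97 in that of control dogs. The highest gonadal value, 10.58, overlapped with a single subcutaneous one, 10.56. The difference was -1.45 ± 0.28, adjusted p = 0.00297. COL6A3 lay at 7.87, 8.20, 7.28, 8.18 and 7.84 in gonadal fat of ad libitum dogs and at 9.19, 8.75, 7.92 and 6.41 in that of control dogs, against 7.89, 11.00, 9.46, 8.61 and 8.70 in subcutaneous fat of ad libitum dogs and 9.33, 10.64, 9.99 and 10.12 in that of control dogs. It differed by -1.61 ± 0.40, adjusted p = 0.013, with its lowest value in gonadal fat of control dog 9. In control dogs alone COL6A1 passed (-1.91 ± 0.42, adjusted p = 0.0229) and COL6A3 did not (-1.95 ± 0.60, adjusted p = 0.0839), and in ad libitum dogs neither did (-0.99 ± 0.37, adjusted p = 0.116 for COL6A1 and -1.26 ± 0.53, adjusted p = 0.163 for COL6A3). COL6A3 had an adjusted p = 0.1 over all dogs without the 4 arrays, at -1.36. The 3 collagens that coat fibrils did not pass, with COL14A1 at -0.31 ± 0.49, COL16A1 at -0.30 ± 0.29 and COL12A1 at -0.09 ± 0.42.

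Among the 9 basement membrane genes tested, 1 was lower and 1 higher in gonadal fat, and the median difference was 0.04. HSPG2 encodes perlecan, the heparan sulphate proteoglycan of basement membranes. HSPG2 lay at 11.23, 10.79, 10.69, 10.80 and 11.38 in gonadal fat of ad libitum dogs and at 11.41, 11.70, 10.90 and 11.25 in that of control dogs, against 11.67, 11.85, 12.07, 11.53 and 11.89 in subcutaneous fat of ad libitum dogs and 11.99, 11.76, 11.59 and 11.78 in that of control dogs. All 9 dogs had less in gonadal fat, by -0.64 ± 0.13, adjusted p = 0.00384. It passed in ad libitum dogs, where the depots did not overlap (-0.82 ± 0.17, adjusted p = 0.00969), and not in control dogs (-0.46 ± 0.19, adjusted p = 0.189). LAMB1, a laminin beta chain, was the 1 gene of the 40 that was higher in gonadal fat. LAMB1 lay at 11.79, 12.87, 11.56, 12.39 and 12.33 in gonadal fat of ad libitum dogs and at 12.02, 12.38, 12.50 and 12.33 in that of control dogs, against 11.52, 11.01, 11.79, 11.90 and 11.83 in subcutaneous fat of ad libitum dogs and 11.93, 11.54, 11.62 and 12.05 in that of control dogs. In 8 of 9 dogs it was higher in gonadal fat, and over all dogs by 0.55 ± 0.17, adjusted p = 0.0377. That call was kept in 2 of 9 fits that left out 1 dog (without dog 5, 0.39, adjusted p = 0.0805), and also without the 4 arrays. Other LAMB1 probe sets were called higher over all dogs as well, at 0.77 (adjusted p = 0.0272), 0.90 (0.0354), 1.70 (0.000998) and 1.09 (0.0495). Those at 0.36 (0.498) and 0.05 (0.856) were not. The probe set at 1.70 also passed in ad libitum dogs (1.83, adjusted p = 0.00845).

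The remaining basement membrane genes did not pass. LAMA4, the laminin alpha chain of fat and vessels, differed by 0.02 ± 0.12, with a 95% interval of -0.23 to 0.26. LAMC1, the gamma chain, differed by 0.13 ± 0.30. COL4A1 and COL4A2, neighbouring genes whose products form the collagen IV network, stood at 0.09 ± 0.15 and -0.03 ± 0.14. Their signs differed by feeding group, with COL4A1 at -0.21 ± 0.20 and COL4A2 at -0.42 ± 0.18 in ad libitum dogs, and at 0.38 ± 0.22 and 0.35 ± 0.20 in control dogs. Another probe set of COL4A1, not the one with the highest mean, was lower in gonadal fat over all dogs (-0.52, adjusted p = 0.00992) and in ad libitum dogs (-1.11, adjusted p = 0.00102). NID1 and NID2, the nidogens that bridge laminin and collagen IV, stood at 0.04 ± 0.36 and -0.29 ± 0.25, and COL15A1, a collagen of the basement membrane zone, at 0.25 ± 0.29. In gonadal fat of ad libitum dog 6, whose array carries ciliated-cell transcripts, LAMC1, NID1, NID2 and COL15A1 were each lowest of the 5 arrays of the group.

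Of the 9 elastic fibre genes 3 were lower in gonadal fat. FBN1 encodes fibrillin, the rod of the microfibrils that carry elastin and hold latent TGF-beta. FBN1 lay at 12.94, 13.58, 12.08, 13.62 and 13.49 in gonadal fat of ad libitum dogs and at 13.9995, 12.71, 13.43 and 13.60 in that of control dogs, against 13.44, 15.48, 14.65, 15.02 and 14.92 in subcutaneous fat of ad libitum dogs and 15.50, 15.45, 15.30 and 15.43 in that of control dogs. The 4 subcutaneous control arrays lay closest together, with an SD of 0.086. All 9 dogs had less in gonadal fat, by -1.77 ± 0.27, adjusted p = 0.000499, and FBN1 passed in ad libitum dogs (-1.56 ± 0.36, adjusted p = 0.0154) and in control dogs (-1.98 ± 0.40, adjusted p = 0.0139). MFAP5, a microfibril-associated glycoprotein, had the largest called difference of the elastic fibre genes. MFAP5 lay at 10.50, 11.40, 9.15, 11.56 and 11.36 in gonadal fat of ad libitum dogs and at 12.12, 9.52, 11.22 and 11.17 in that of control dogs, against 11.33, 13.23, 12.42, 13.21 and 13.18 in subcutaneous fat of ad libitum dogs and 13.99, 13.66, 13.09 and 13.93 in that of control dogs. Each dog was lower in gonadal fat, by -2.27 ± 0.39, adjusted p = 0.00131 in the mean, a fold of 4.82. MFAP5 also passed in ad libitum (-1.88 ± 0.52, adjusted p = 0.0379) and in control dogs (-2.66 ± 0.58, adjusted p = 0.0221).

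FBLN2, a fibulin of elastic fibres and basement membranes, was lower in gonadal fat of 8 dogs (-0.68 ± 0.21, adjusted p = 0.037), a call kept in 1 of 9 fits that left out 1 dog. ELN, the elastin gene, lay between 4.45 and 5.61 in gonadal fat of ad libitum dogs and between 5.34 and 5.60 in that of control dogs. In subcutaneous fat its range was 5.43 to 5.66 in ad libitum dogs and 5.61 to 6.31 in control dogs. The difference, -0.34 ± 0.15, adjusted p = 0.137, did not pass. EMILIN1 (-0.29 ± 0.14, adjusted p = 0.157), MFAP4 (-0.74 ± 0.46, adjusted p = 0.287), FBLN5 (-0.06 ± 0.12) and FBLN1 (0.09 ± 0.27) did not pass either. FBN2, another fibrillin gene, reached 9.44 in gonadal fat of ad libitum dog 6 and 7.30 in subcutaneous fat of control dog 4, the 2 arrays with ciliated-cell transcripts, and was at or below 4.88 on the other 16. The part of other tissue in its values was not tested.

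VCAN was the 1 proteoglycan of 6 that differed between depots. It encodes versican, a large hyaluronan-binding proteoglycan of loose matrix. VCAN lay at 6.13, 7.61, 6.11, 7.78 and 6.92 in gonadal fat of ad libitum dogs and at 7.23, 8.54, 6.39 and 6.55 in that of control dogs, against 6.71, 9.84, 8.62, 8.79 and 8.75 in subcutaneous fat of ad libitum dogs and 9.70, 10.69, 8.21 and 9.13 in that of control dogs. All 9 dogs were lower in gonadal fat, by -1.94 ± 0.44, adjusted p = 0.00722. It did not pass in ad libitum dogs (-1.63 ± 0.58, adjusted p = 0.0982) or control dogs (-2.25 ± 0.65, adjusted p = 0.0688) taken alone. The small leucine-rich proteoglycans did not pass, with decorin (DCN) at -0.15 ± 0.11, lumican (LUM) at -0.11 ± 0.23, biglycan (BGN) at 0.15 ± 0.54, fibromodulin (FMOD) at 0.41 ± 0.29 and osteoglycin (OGN) at 0.36 ± 0.54. DCN had the narrowest 95% interval of these, -0.38 to 0.07, and BGN one of -0.99 to 1.29.

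Of 5 adhesive and matricellular genes 3 were lower in gonadal fat. FN1 encodes fibronectin, the glycoprotein that links cells to collagen fibres. FN1 lay at 10.18, 11.30, 11.90, 11.12 and 11.68 in gonadal fat of ad libitum dogs and at 11.74, 13.22, 11.75 and 12.17 in that of control dogs, against 12.18, 13.996, 12.81, 13.31 and 13.22 in subcutaneous fat of ad libitum dogs and 13.60, 13.81, 13.50 and 13.16 in that of control dogs. Each dog had less in gonadal fat, by -1.58 ± 0.27, adjusted p = 0.00142. The depots did not overlap in ad libitum dogs, where it passed (-1.87 ± 0.37, adjusted p = 0.00661), and overlapped in control dogs through dog 3, where it did not (-1.30 ± 0.41, adjusted p = 0.0907). POSTN, periostin, a matricellular protein of collagen-rich tissue, was below log2 4 on all 9 gonadal arrays. In subcutaneous fat it was 4.22, 9.23, 5.01, 3.04 and 3.43 in ad libitum dogs and 5.81, 8.76, 7.65 and 5.48 in control dogs. With the gonadal mean set to the floor of log2 4 it was at least 3.88-fold lower in gonadal fat over all dogs (adjusted p = 0.00503) and at least 7.6-fold lower in control dogs (adjusted p = 0.0378). In ad libitum dogs, where 3 of 5 subcutaneous arrays reached the floor, it did not pass (adjusted p = 0.131). POSTN passed the filter through subcutaneous arrays alone, so the lower gonadal value in these tests was built into its selection.

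SPARC, a collagen-binding matricellular protein, was lower in gonadal fat of all 9 dogs by a small amount (-0.53 ± 0.13, adjusted p = 0.00992). Without the 4 arrays SPARC, POSTN and FBLN2 were not called over all dogs. With the array of dog 7 left out too POSTN was called and VCAN was not. THBS2, an anti-angiogenic thrombospondin, stood at -1.10 ± 0.37, adjusted p = 0.0515, and THBS1 at 0.51 ± 0.34, with a positive sign in 5 of 9 dogs. Because both depots come from the same dogs, the comparison can also be made within dogs. In control dogs 5 genes passed without a block for the dog, all lower in gonadal fat (COL1A1, COL6A1, FBN1, MFAP5 and POSTN, against 1.82% of all probe sets, or 4 of 39 without POSTN), and 12 of 40 had depots that did not overlap (13% of all probe sets). With the dog as a random block 9 passed and as a fixed block 8, all lower, against 3.59% and 2.33% of all probe sets. VCAN (adjusted p = 0.0276 and 0.00815), COL1A2 (0.0283 and 0.0265) and FN1 (0.0435 and 0.0461) were among them in both. Without dog 3 or dog 4 no gene passed in control dogs, and without dog 1 or dog 9 there were 2. The share of all probe sets called lower fell as well. It was 0.34% (without dog 3), 0.95% (dog 4), 0.493% (dog 1) and 1.14% (dog 9), against 1.82% with all dogs. FBN1 and MFAP5 passed without the 4 arrays, and none with the array of dog 7 left out too. The actin 3' minus 5' signal, read for RNA length, also differed by depot in these dogs. It was 2.91 ± 0.91 in gonadal and 4.75 ± 1.02 in subcutaneous fat (SD, n = 4), lower in gonadal fat of all 4. The same signal from GAPDH probe sets overlapped between depots. It was 1.957, 2.295, 2.146 and 2.885 in gonadal and 2.74, 2.12, 2.639 and 2.585 in subcutaneous fat. With the actin signal as a covariate MFAP5 alone stayed called. In ad libitum dogs 5 passed, all lower (COL1A1, FN1, FBN1, HSPG2 and MFAP5, against 4.36% of all probe sets), and 5 of 40 had depots that did not overlap (8.97%). Without dog 7 or dog 8 there were 2, and 1.61% and 1.35% of all probe sets were lower. FN1 and HSPG2 (lower) and LAMB1 (higher) passed without the 4 arrays. The actin signal was 3.31 ± 0.91 in gonadal and 3.49 ± 0.77 in subcutaneous fat of ad libitum dogs (SD, n = 5). With the dog as a fixed block 7 genes passed, 6 lower and FBLN1 higher (0.78, adjusted p = 0.0356), against 4.98% and 3.55% of all probe sets. VCAN was called there with either block (adjusted p = 0.0444 random and 0.00941 fixed). Over all dogs THBS2 was called with either block (adjusted p = 0.0245 random and 0.0158 fixed), COL5A1 (0.0334) and COL5A2 (0.0354) with the random one, and LAMB1 (0.0802) and FBLN2 (0.0537) missed with the fixed one.

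**Figure D2:**
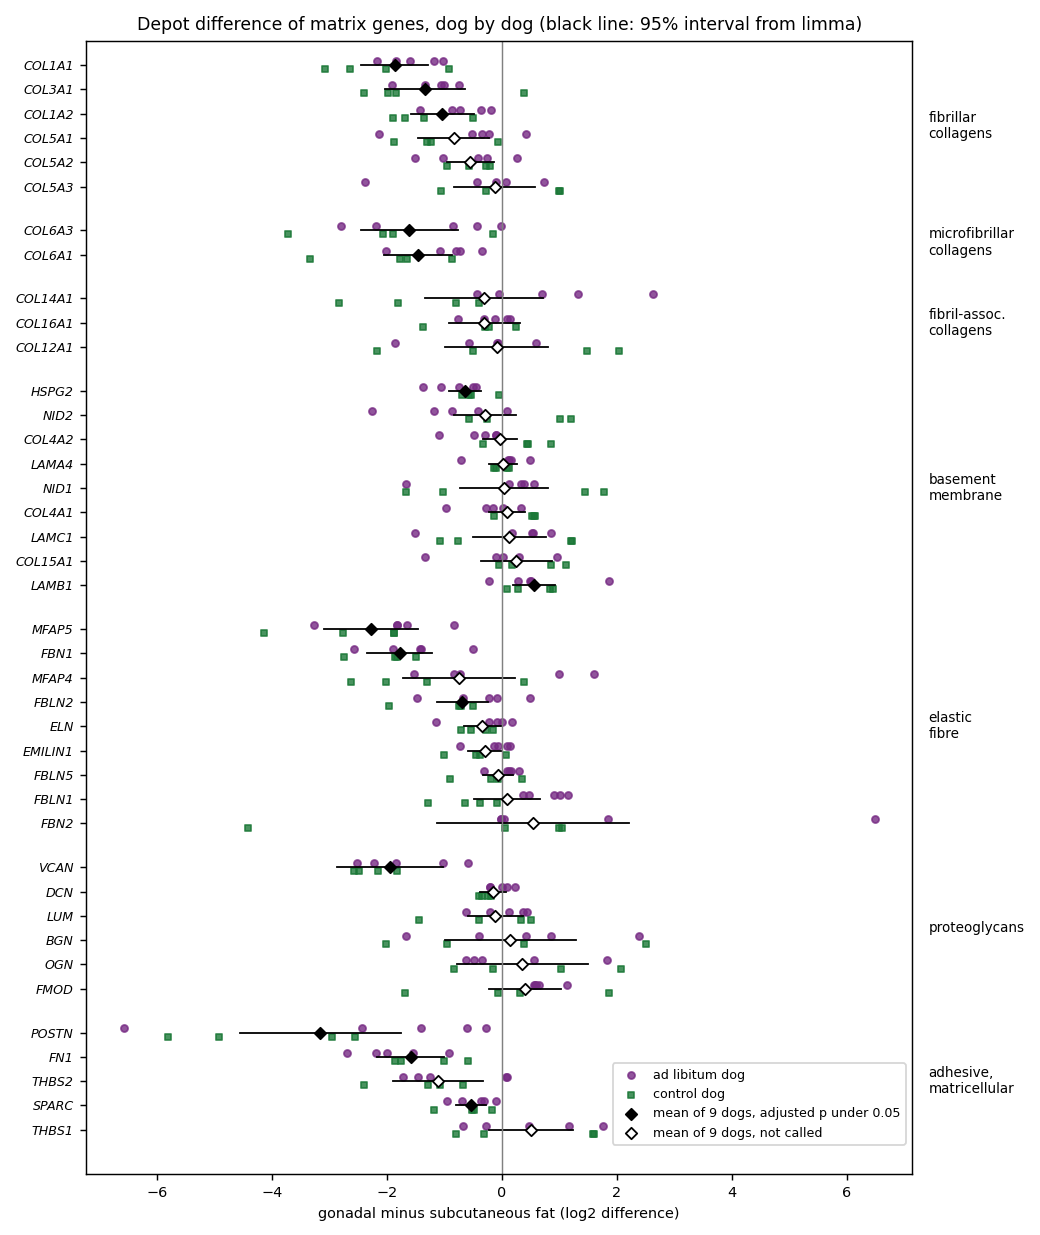
Gonadal minus subcutaneous log2 difference (horizontal axis) of the 40 tested matrix genes by class, with a circle for each of 5 ad libitum dogs, a square for each of 4 control dogs, and a diamond with a 95% interval for the mean of 9 dogs, filled where the adjusted p was under 0.05. The 13 filled diamonds left of 0 include COL1A1, COL6A1, FBN1 and FN1, and the filled diamond right of 0 is LAMB1. Differences of POSTN and FBN2 include values below the floor of log2 4.

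Genes that process collagen were also compared between depots over all dogs, where 8.84% of all probe sets were called lower in gonadal fat and 7.76% higher. No list was tested as a set. Of 17 measured genes of collagen synthesis and export 6 were lower in gonadal fat and 0 higher, with a median of -0.47. They were BMP1 (-1.61 ± 0.19, adjusted p = 6.29e-05), which cuts off the carboxy-terminal propeptide, PCOLCE (-1.65 ± 0.31, adjusted p = 0.00258), which speeds that cut, P3H1 (-0.58 ± 0.12, adjusted p = 0.00519), PLOD3 (-0.53 ± 0.13, adjusted p = 0.0105), ADAMTS2 (-1.35 ± 0.33, adjusted p = 0.011) and P4HA3 (-1.12 ± 0.33, adjusted p = 0.0293). Of 4 measured crosslinking genes, LOXL2 (-2.22 ± 0.30, adjusted p = 0.000229) was lower and TGM2 (2.00 ± 0.19, adjusted p = 1.07e-05), a transglutaminase, was higher. Among 16 matrix receptors 3 were lower, DDR2 (-1.71 ± 0.23, adjusted p = 0.00019), a collagen-binding kinase, CD44 (-1.78 ± 0.38, adjusted p = 0.00521), a receptor for hyaluronan, and ITGA11 (-1.14 ± 0.29, adjusted p = 0.0136), a collagen-binding integrin chain, and ITGB1 (0.83 ± 0.25, adjusted p = 0.0361) was higher. On the TGF-beta route, which drives collagen transcription, 3 of 12 were lower, SMAD2 (-0.56 ± 0.13, adjusted p = 0.01), TGFB1 (-0.56 ± 0.15, adjusted p = 0.0162) and TGFBI (-1.54 ± 0.47, adjusted p = 0.0342).

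Markers of several cell types moved with depot, beside 8.84% of all probe sets called lower in gonadal fat and 7.76% called higher. Of 8 fibroblast and stroma markers 3 were lower in gonadal fat, PI16 (-3.56 ± 0.37, adjusted p = 1.9e-05), CD34 (-1.06 ± 0.31, adjusted p = 0.0269) and THY1 (-1.07 ± 0.34, adjusted p = 0.0412), and TCF21 (2.15 ± 0.28, adjusted p = 0.000144) was higher. TCF21 was below log2 4 on every subcutaneous array and passed the filter through gonadal arrays alone, so its higher gonadal value was built into its selection. The mean of the 8 markers per array ranged from 7.56 to 8.84 in gonadal fat and from 7.93 to 9.66 in subcutaneous fat. Macrophage markers were lower for 3 of 7 (7.12 to 8.65 per array in gonadal and 8.38 to 10.32 in subcutaneous fat). Smooth muscle and pericyte markers were higher for 5 of 6 (8.84 to 11.81 and 7.16 to 9.53), and mesothelial markers higher for 4 of 5 and lower for 1 (5.86 to 8.18 and 3.31 to 6.51). The mesothelial markers UPK3B, UPK1B and WT1 reached log2 4 in subcutaneous fat only in control dog 4. They passed the filter mostly through gonadal arrays, so a higher gonadal value was largely built into their selection. Adipocyte and endothelial markers were called for 0 of 8 and 0 of 7. The part of these cell types in the matrix differences was not tested.

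The second question was whether ad libitum feeding changed the matrix genes. In subcutaneous fat 1 of 40 genes was higher with ad libitum feeding, NID2, and 1 lower, FBLN1 (limma, adjusted p under 0.05, 5 dogs against 4). Of all probe sets 1.9% were higher and 0.451% lower. Differences were negative for 31 of 40 genes and their median was -0.37, beside 0.01 over all probe sets. The classes lay apart in sign. Basement membrane genes were positive in 7 of 9 (median 0.53), while the signs were negative for 9 of 9 elastic fibre genes (median -0.72), 6 of 6 proteoglycans (median -0.33), 5 of 5 adhesive genes (median -0.42) and 5 of 6 fibrillar collagens (median -0.46). The sign of FBN2, an elastic fibre gene, rests on control dog 4 (7.30), as its other subcutaneous values lay below log2 4. Without the 4 arrays the medians were 0.27, -0.67, -0.08, -0.34 and -0.15 in the same order, and 0 of 40 genes passed. With the subcutaneous array of dog 7 left out too, 3 of 6 fibrillar collagens (median -0.06) and 3 of 6 proteoglycans (median -0.02) were negative.

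NID2, nidogen, was the gene that rose. It lay at 9.68, 8.32, 9.04, 8.88 and 9.07 in subcutaneous fat of ad libitum dogs, against 7.19, 7.98, 7.22 and 7.53 in that of control dogs. The groups did not overlap, which held for 2 of 40 genes and for 10.1% of all probe sets. The difference was 1.52 ± 0.36, adjusted p = 0.0412, a fold of 2.86. FBLN1, a fibulin of elastic fibres, fell. Its values were 9.19, 11.27, 10.46, 10.13 and 10.13 in ad libitum dogs, against 11.66, 12.46, 11.73 and 11.16 in control dogs, where ad libitum dog 5 lay above control dog 9. The difference was -1.52 ± 0.39, adjusted p = 0.0496. Without the 4 arrays NID2 stood at 1.64 (adjusted p = 0.113) and FBLN1 at -1.17 (adjusted p = 0.291). Leaving out any 1 of dogs 1, 2, 3, 4, 7, 8 and 9 also ended both calls. In those fits 0.014% to 0.456% of all probe sets were called, against 2.36% with all dogs. Leaving out dog 6 ended the call of FBLN1 (adjusted p = 0.0575), with 2.65% of all probe sets called.

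The chosen probe sets of collagen IV and XV chains had the sign of NID2 and did not pass. Of the other COL4A1 probe sets, 1 did (1.02, adjusted p = 0.0167). COL4A1 was 13.31, 12.59, 13.36, 13.30 and 13.18 in ad libitum dogs, against 12.74, 12.21, 12.56 and 12.97 in control dogs, and 4 of the 5 ad libitum arrays lay above every control one (0.53 ± 0.21, adjusted p = 0.15). COL4A2 stood at 0.53 ± 0.19, adjusted p = 0.125, COL15A1 at 1.12 ± 0.41, adjusted p = 0.127 and NID1 at 0.73 ± 0.51, adjusted p = 0.394, the last without overlap between groups. The laminin chains were near 0, with LAMA4 at -0.12 ± 0.16, LAMB1 at -0.18 ± 0.24 and LAMC1 at 0.29 ± 0.42, and HSPG2 stood at 0.02 ± 0.18.

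On the negative side, type I collagen did not pass. COL1A1 was 13.48, 15.34, 13.81, 14.02 and 13.93 in ad libitum dogs, against 14.97, 15.28, 15.13 and 14.46 in control dogs (-0.84 ± 0.39, adjusted p = 0.205). COL1A2 was 13.25, 15.37, 13.87, 13.63 and 13.84, against 14.83, 15.22, 14.86 and 14.54 (-0.87 ± 0.37, adjusted p = 0.167). In both genes 4 ad libitum dogs lay below every control dog and dog 5 above every control dog. COL3A1 stood at -0.33 ± 0.46, adjusted p = 0.69, and COL6A3 at -0.89 ± 0.57, adjusted p = 0.346. COL14A1, a fibril-coating collagen, was 7.38, 11.34, 9.01, 8.96 and 8.95 in ad libitum dogs, against 10.49, 11.89, 11.61 and 10.52 in control dogs (-2.002 ± 0.69, adjusted p = 0.111). EMILIN1, which sits between elastin and microfibrils, stood at -0.58 ± 0.19, adjusted p = 0.101, and MFAP4 at -1.47 ± 0.65, adjusted p = 0.187. FBN1 (-0.72 ± 0.38, adjusted p = 0.257), ELN (-0.37 ± 0.21, adjusted p = 0.302), FN1 (-0.41 ± 0.39, adjusted p = 0.529) and DCN (-0.37 ± 0.15, adjusted p = 0.157) did not pass. For DCN the 95% interval was -0.68 to -0.05.

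**Figure D3:**
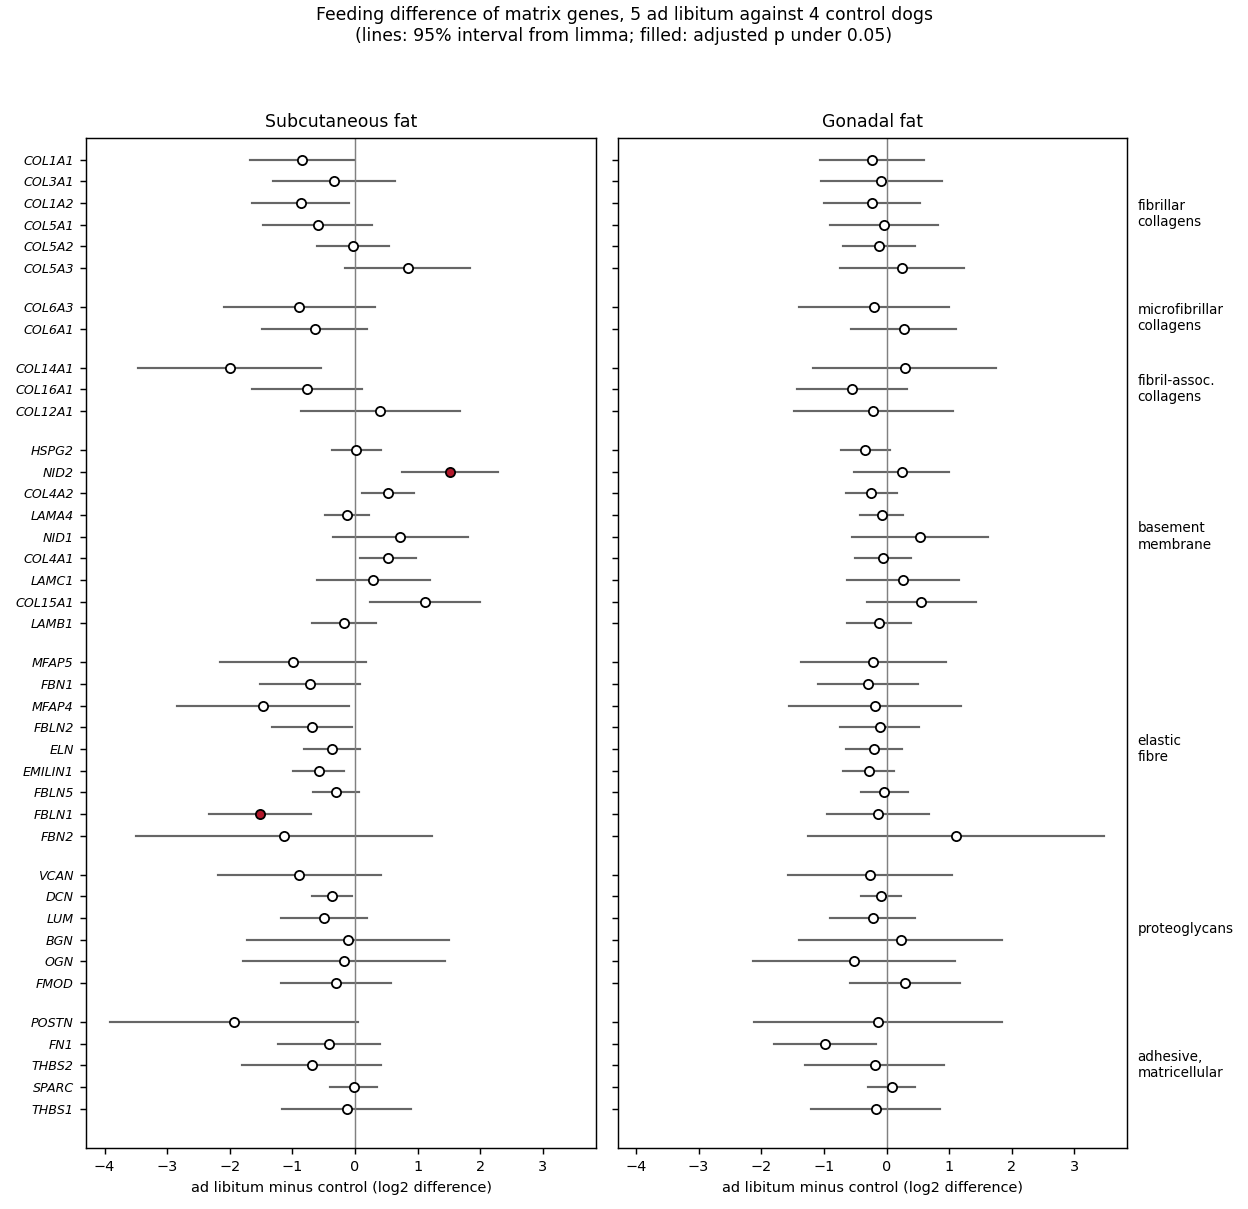
Ad libitum minus control log2 difference (horizontal axis) of the 40 tested matrix genes by class in subcutaneous fat (left) and gonadal fat (right), 5 dogs against 4, with 95% intervals; filled points had an adjusted p under 0.05. In subcutaneous fat NID2 lies at 1.52 and FBLN1 at -1.52. The 9 elastic fibre genes lie left of 0 there, FBN2 through the array of control dog 4. In gonadal fat no point is filled.

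The subcutaneous array of dog 5 stood apart in these genes. It was the highest of the 5 ad libitum subcutaneous arrays in 27 of the 40 genes and the lowest in 7, against 31.3% and 33.6% of all probe sets. By class it was highest in 5 of 6 fibrillar collagens, 8 of 9 elastic fibre genes and 6 of 6 proteoglycans, and lowest in 6 of 9 basement membrane genes. Dog 5 was singled out after its values in these genes were seen. Where it lay opposite the other ad libitum dogs, a larger difference without it follows from that choice. Fits that left out another dog called 1 gene (without dog 6, 2.65% of all probe sets) or 0 (0.014% to 0.456%). The subcutaneous arrays of control dogs 3 and 4, with transcripts of other tissue, were kept. With both arrays of dog 5 left out 11 of 40 genes passed, 9 lower and 2 higher (3.84% and 8.75% of all probe sets). The lower ones were COL1A1 (-1.15, adjusted p = 0.0404), COL1A2 (-1.22, 0.0121), COL5A1 (-1.03, 0.0336), COL14A1 (-2.56, 0.0171), FBLN1 (-1.78, 0.00888), EMILIN1 (-0.73, 0.0217), MFAP4 (-2.03, 0.0274), DCN (-0.48, 0.0282) and POSTN (adjusted p = 0.00857). For POSTN the 4 remaining ad libitum arrays averaged 3.93, below log2 4, and the 4 control arrays 6.93. Dogs 2 (4.22) and 6 (5.01) lay above log2 4 and dogs 7 (3.04) and 8 (3.43) below it, so no fold is given. The higher ones were NID2 (1.69, 0.0142) and COL4A1 (0.67, 0.0461). COL3A1 (-0.65, 0.317) did not pass there.

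**Figure D4:**
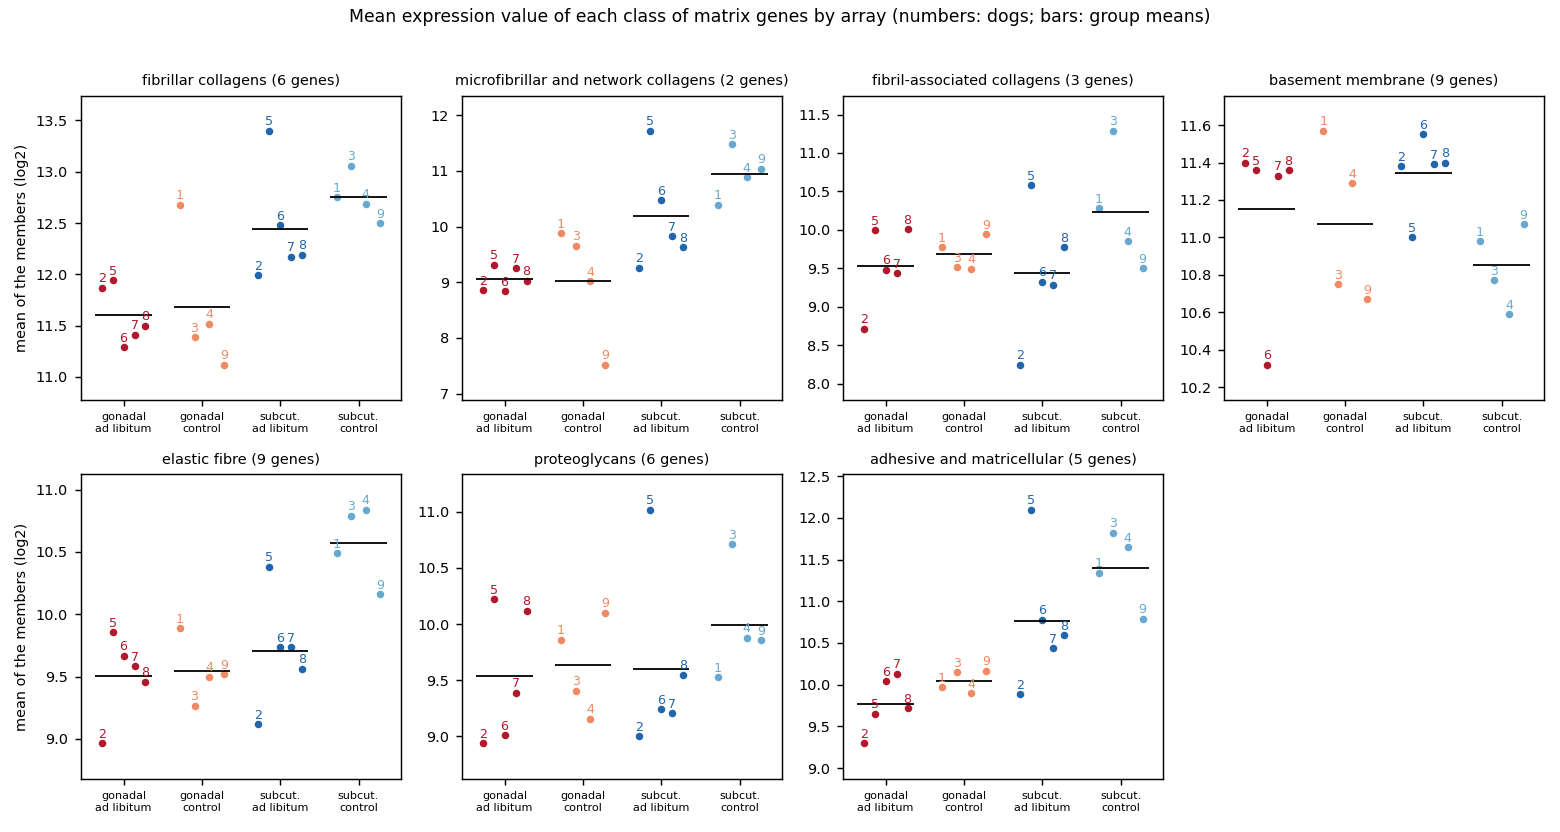
Mean log2 value (vertical axis, a separate scale in each panel) of the tested genes of each class on each array, with points labelled by dog number and bars for group means, gonadal left of subcutaneous and ad libitum left of control. In subcutaneous fat dog 5 is the highest ad libitum array in 6 classes and the lowest for the basement membrane genes. In gonadal fat control dog 1 lies highest for the fibrillar collagens, at 12.68.

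Other values moved with the feeding groups in subcutaneous fat, where 1.9% of all probe sets were called higher and 0.451% lower. Adipocyte markers were positive for 8 of 8 (median 0.63), with leptin (LEP, 2.71 ± 0.67, adjusted p = 0.0468) called, and averaged 11.06 to 13.27 per array in ad libitum dogs and 10.94 to 12.13 in control dogs. Smooth muscle and pericyte markers had a median of -1.06 and 0 of 6 passed. Skeletal muscle markers averaged 3.90 to 5.92 per array in ad libitum dogs and 4.34 to 11.31 in control dogs. Fibroblast and stroma markers averaged 7.93 to 9.10 in ad libitum dogs and 8.83 to 9.66 in control dogs, and 0 of 8 passed (PI16 -1.53 ± 0.53, adjusted p = 0.11). RNA length was read from actin probe sets, as the signal at the 3' end minus that at the 5' end, larger for shorter RNA. It averaged 3.49 ± 0.77 (SD, n = 5) in ad libitum dogs and 4.75 ± 1.02 (SD, n = 4) in control dogs, a difference of -1.27 (exact permutation test, two-sided, p = 0.0873, 126 regroupings). From GAPDH probe sets that signal ranged over 2.33 to 2.70 in ad libitum dogs and 2.12 to 2.74 in control dogs. With the actin signal as a covariate 0 of 40 genes passed. The part of these differences in the matrix results was not tested. LOX, the lysyl oxidase that crosslinks collagen and elastin, was higher in ad libitum dogs (3.29 ± 0.66, adjusted p = 0.0245), the 1 crosslinking gene of 4 to pass. None of 17 genes of collagen synthesis and export (median -0.15), 16 matrix receptors or 12 genes of the TGF-beta route passed, and 11 of the last 12 had a negative sign, LTBP4 (-1.26 ± 0.37, adjusted p = 0.0732) with the smallest p.

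In gonadal fat no matrix gene differed past the threshold with feeding. The count was 0 of 40 (limma), and 1 of 40 had an unadjusted p under 0.05. Over all probe sets it was 0 of 21484 (0%), 531 with an unadjusted p under 0.05. The 40 differences had a median of -0.13 and 29 were negative. The direction turned without the 4 arrays, with 12 negative and a median of 0.08, and without dog 1 the median was -0.01 with 20 negative. FN1 had the smallest p. It was 10.18, 11.30, 11.90, 11.12 and 11.68 in gonadal fat of ad libitum dogs, against 11.74, 13.22, 11.75 and 12.17 in that of control dogs, groups that overlapped (-0.98 ± 0.39, unadjusted p = 0.0214, adjusted p = 1 from limma). HSPG2 (-0.34 ± 0.18), EMILIN1 (-0.29 ± 0.19) and COL15A1 (0.56 ± 0.41) came next. The main fibrillar genes lay near 0, with COL1A1 at -0.24 ± 0.39, COL1A2 at -0.23 ± 0.37 and COL3A1 at -0.08 ± 0.46. So did COL4A1 (-0.06 ± 0.21), COL6A3 (-0.19 ± 0.57), ELN (-0.20 ± 0.21), FBN1 (-0.29 ± 0.38), LAMA4 (-0.08 ± 0.16) and DCN (-0.09 ± 0.15). Precision varied among them, from a 95% interval of -0.40 to 0.23 for DCN to one of -1.39 to 1.00 for COL6A3. NID2 and FBLN1, the genes called in subcutaneous fat, stood at 0.24 ± 0.36 and -0.14 ± 0.39, and LOX at 1.07 ± 0.66.

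Whether the feeding difference depended on the depot was tested as an interaction over the 9 dogs, gonadal minus subcutaneous response. It passed for 0 of 40 genes, 4 of them with an unadjusted p under 0.05, and for 0 of 21484 probe sets (0%, limma, 1344 with an unadjusted p under 0.05). The smallest p values were those of COL4A2 (-0.77 ± 0.27), FBLN1 (1.38 ± 0.55), NID2 (-1.28 ± 0.51) and COL14A1 (2.29 ± 0.98), each with an adjusted p = 0.748. The remaining leading genes of the classes stood at 0.60 ± 0.56 (COL1A1), 0.64 ± 0.52 (COL1A2), 0.25 ± 0.65 (COL3A1), -0.59 ± 0.30 (COL4A1), 0.69 ± 0.80 (COL6A3), -0.57 ± 0.55 (FN1), 0.16 ± 0.30 (ELN), 0.43 ± 0.53 (FBN1), 0.05 ± 0.23 (LAMA4) and 0.28 ± 0.21 (DCN). A difference in feeding response between the depots is therefore not shown for any of these genes.

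The genes also differed in how far dogs of 1 group spread. The pooled SD within groups was 0.197 log2 units for DCN, 0.227 for LAMA4, 0.249 for FBLN5 and 0.255 for SPARC. It was 1.05 for MFAP4, 1.11 for COL14A1, 1.23 for OGN, 1.23 for BGN, 1.51 for POSTN and 1.81 for FBN2. BGN reached 9.76 and 9.77 in gonadal fat of ad libitum dog 8 and control dog 9, and 10.20 in subcutaneous fat of ad libitum dog 5. OGN was also high on these arrays, at 8.73, 9.01 and 9.62, each among the highest of its group. Of the 40 genes 33 had several tested probe sets. The sign of the depot difference over all dogs varied among the probe sets of 8 of these 33, and of the 13 called genes with several, another probe set was also called for 10, the exceptions being FBLN2, HSPG2 and SPARC. Among the 33, the sign of the subcutaneous feeding difference varied for 7, and both called genes, NID2 and FBLN1, had a further probe set that passed.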

How the data were processed

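The 18 samples of fat (9 dogs, 2 depots) gave total RNA by Trizol, and biotin cRNA from it was hybridised to Affymetrix arrays, per the labels. The deposited values were made with GCRMA, which the submitters' processing notes name without a version. The deposited GCRMA values, read here as log2, run from 0.681 to 16.51. Neither the base of the logarithm nor a scan date is stated in the labels. Beside 111 array controls, the platform annotation lists 1 symbol for 29254 probe sets, several for 439 and none for 13231.

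The 4 group means were fitted to the 18 arrays with limma 3.58.1 (R 4.3.3, statmod 1.5.0 for the block), leaving 14 residual degrees of freedom, to which moderation added 2.54. All p-values are two-sided. Benjamini-Hochberg adjustment ran over the 21484 tested probe sets in each of 6 comparisons, with 0.05 as the threshold. The contrasts of 2 groups were checked on simulated data. Errors after ± are standard errors unless SD is given. Where all arrays of a group lie below log2 4 for a called gene, the fold is a bound with that group mean set to log2 4. The number of arrays limits the precision.

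The genes and lists were chosen with earlier results of these data known. Named were, per comparison, the genes past the threshold, at least the 4 with the smallest p, 10 leading genes of the classes, up to 3 genes of each pathway or marker list, and LOX. Further called genes of a list were named after their values were seen.

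The animal number in the labels pairs the depots. Deviations of a dog's 2 arrays from their group means correlated at -0.0505 (dog 4) to 0.528 (dog 2), and the consensus correlation for the block was 0.168. Alternatives were other filters, normalizations and moderation, array weights, the dog as a block, a fit to the compared arrays alone, an actin covariate, each dog left out, averaged probe sets, and fits without 4 or 5 arrays.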

Additional observations from a re-analysis of the deposited data

Results flagged for a closer look

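In 21 of 157 gene and group values 1 array stood apart from the others of its group by Dixon's test, which chance gives in about 1 in 20 groups. Of these, 8 were the subcutaneous array of ad libitum dog 5. It was high for COL1A2 (15.37, the other 4 at most 13.87), COL5A1 (12.36, at most 10.49), EMILIN1 (8.24), SPARC (14.88), BGN (10.20) and OGN (9.62), and low for COL4A1 (12.59, the others at least 13.18) and COL15A1 (9.97). Another 7 were the gonadal array of ad libitum dog 6, low for COL5A2 (11.13), COL15A1 (9.57), FBLN2 (11.64), LAMA4 (13.20), LAMC1 (7.89), NID1 (8.20) and NID2 (6.77). Both arrays are the ones described above, with high macrophage markers and with ciliated-cell transcripts, and the part of those cells in these values was not tested.

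The other 6 were scattered over arrays. In gonadal fat ELN was low in ad libitum dog 2 (4.45) and in control dog 9 (5.34), COL1A2 was high in control dog 1 (14.33), and BGN was high in control dog 9 (9.77). In subcutaneous fat FBN2 was high in control dog 4 (7.30) and OGN low in control dog 1 (5.91).

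FBLN1 moved in opposite directions between depots in the feeding groups. Gonadal minus subcutaneous fat was 0.37 to 1.16 in the 5 ad libitum dogs (mean 0.78) and -1.28 to -0.09 in the 4 control dogs (mean -0.60). The interaction, 1.38, did not pass in limma (adjusted p = 0.748, or 0.416 with the dog as a fixed block). With that block the difference in ad libitum dogs passed (adjusted p = 0.0356) and that in control dogs did not (adjusted p = 0.135).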

How the results depend on the processing

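Of the values of single genes under the alternatives, 1579 kept sign and side of the threshold, 125 lost and 23 gained a call, and 54 changed sign, mostly small differences. The count for feeding in subcutaneous fat, 2, became 0 with no filter, quantile normalization, only the arrays of the comparison, the actin covariate or without the 4 arrays, 1 with median centring or probe sets averaged, and 13 with array weights. Leaving out dogs in turn gave 0 to 11. For depot in ad libitum dogs, 5 became 3 with only its arrays or without the 4 arrays, 1 with probe sets averaged and 11 with weights (2 to 5 leaving out dogs). For depot in control dogs, 5 became 2 with no filter or without the 4 arrays, 1 with the actin covariate and 13 with weights (0 to 8 leaving out dogs). The replicate block gave 9 (random) or 8 (fixed) there. The shares over all probe sets moved too. In the main fit they were 2.36% (subcutaneous feeding), 7.19% (depot, ad libitum) and 2.92% (depot, control). With weights they were 23.2%, 24.5% and 16.6%, and without the 4 arrays 0.0233%, 7.55% and 1.59%. The actin covariate gave 0.00465%, 10.1% and 0.926%, and no filter 0.403%, 2.62% and 0.641%. In control dogs the random block gave 6.27% and the fixed one 3.82%. For depot over all dogs, 14 became 8 without the 4 arrays (11 to 17 leaving out dogs). Feeding in gonadal fat and the interaction stayed at 0 in every fit run. Without the 4 arrays and the subcutaneous array of dog 7 the counts were 0 (subcutaneous feeding), 3 (depot, ad libitum), 0 (control) and 8 (all). The block moved no other count by over 1.5 times.

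Without the 4 arrays, a choice made after seeing the data, signs turned for COL3A1 in subcutaneous feeding (0.031) and the interaction (-0.22), for gonadal feeding of COL4A1 (0.053), COL6A3 (0.0060), ELN (0.066), FBN1 (0.13), LAMA4 (0.048) and DCN (0.019), for depot in ad libitum dogs of ELN (0.013) and DCN (0.092), and for depot over all dogs of LAMA4 (-0.011). With the array of dog 7 left out too, gonadal feeding was the same by construction, and the others were 0.20 and -0.39 for COL3A1, 0.016 for ELN, 0.077 for DCN and -0.021 for LAMA4. Weights turned LAMA4 in gonadal feeding (0.0051) and DCN in ad libitum depot (0.044). Median centring turned LAMA4 in depot (-0.026 ad libitum, 0.0066 control, -0.0099 all) and in the interaction (-0.033). The actin covariate turned COL4A1 (-0.055) and LAMA4 (-0.0011) over all dogs, and averaged probe sets turned COL4A1 over all dogs (-0.12) and LAMA4 in control dogs (0.12). Leaving out dogs in turn, gonadal feeding ranged over -0.49 to 0.18 for COL1A1, -0.40 to 0.043 for COL1A2, -0.40 to 0.44 for COL3A1, -0.15 to 0.080 for COL4A1, -0.75 to 0.18 for COL6A3, -0.27 to 0.017 for ELN and -0.15 to 0.056 for LAMA4. LAMA4 ranged over -0.075 to 0.22 (depot, ad libitum), -0.050 to 0.036 (control), -0.042 to 0.11 (all) and -0.068 to 0.23 (interaction), DCN over -0.076 to 0.031 (depot, ad libitum) and COL3A1 over -0.064 to 0.86 (interaction). The cause was not tested for any of these, and fewer arrays remain where arrays are left out.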
